A study of Mus musculus and Homo sapiens with 22 samples.

Results

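Matrix metalloproteinases (MMPs) were followed at the RNA level in cancer cells treated with either of the kinase inhibitors ENMD-2076 and TAK901. The genes were fixed by name: Mmp3, Mmp9, Mmp10, Mmp13 and Mmp14 in the mouse libraries, and the Ensembl IDs ENSG00000196611 (MMP1), ENSG00000149968 (MMP3), ENSG00000100985 (MMP9), ENSG00000137745 (MMP13) and ENSG00000157227 (MMP14) in the human ones. They are 10 of 81637 gene IDs in the files, 5 of 42713 human and 5 of 38924 mouse, and all 10 passed the filter on low counts. MDA-MB-231, a human triple-negative breast cancer line, received ENMD-2076 at 2.5 or 5 µM, TAK901 at 1 or 2 µM, or the solvent DMSO. Libraries labelled 4T1, a mouse mammary carcinoma line, received either of 2 doses of ENMD-2076, 1.25 µM and 2.5 µM, set beside the libraries DMSO 1 and 2, or 1 µM and 2 µM of TAK901, set beside DMSO 3 and 4. The ENMD-2076 doses of 4T1 follow the treatment labels, from which the growth protocol and the table headers differ. All cells had been plated 24 h before a treatment of 24 h, and each of the 11 groups had 2 libraries. Nothing in the labels says that the 2 libraries of a group came from separate cultures, so the p-values reflect library-to-library spread alone, and that spread may be technical.

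MMPs are zinc-dependent endopeptidases that cut extracellular matrix and cell surface proteins. They are made as inactive proenzymes, are activated when the propeptide is cut off, for instance by plasmin, furin or another MMP, and are held in check by tissue inhibitors of metalloproteinases (TIMPs). MMP1 and MMP13 are collagenases that cut fibrillar collagen, MMP3 and MMP10 are stromelysins with broad substrates that also activate other MMP proenzymes, MMP9 is a gelatinase that cuts denatured and basement membrane collagen, and MMP14 is a membrane-anchored MMP that activates the proenzyme of MMP2. In breast tumours MMPs are known for matrix breakdown and invasion. ENMD-2076 is an inhibitor of Aurora A and of kinases of angiogenesis, and TAK901 is an inhibitor of Aurora kinases.

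Several MMP promoters carry a site for the transcription factor AP-1 close to the start of transcription. The 250 bases before the RefSeq start are shown for the mouse genes with an entry in the RefSeq promoter table (build GRCm38.p6, plus strand), because 3 of them hold the AP-1 core TGANTCA and 1 does not. The windows are chr9:7272264-7272513 for Mmp13, chr9:7445572-7445821 for Mmp3, chr9:7502092-7502341 for Mmp10 and chr14:54431348-54431597 for Mmp14. Capitals mark each match to TGANTCA.
Mmp13: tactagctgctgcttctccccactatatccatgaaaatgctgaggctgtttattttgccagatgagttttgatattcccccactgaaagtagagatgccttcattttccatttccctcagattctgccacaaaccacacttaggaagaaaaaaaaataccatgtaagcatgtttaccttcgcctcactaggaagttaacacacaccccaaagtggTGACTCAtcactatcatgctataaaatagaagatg
Mmp3: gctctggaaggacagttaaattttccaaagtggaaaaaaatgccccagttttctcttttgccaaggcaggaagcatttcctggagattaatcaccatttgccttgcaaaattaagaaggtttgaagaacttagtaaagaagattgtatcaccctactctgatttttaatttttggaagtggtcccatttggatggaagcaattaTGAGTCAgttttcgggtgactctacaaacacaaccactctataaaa
Mmp10: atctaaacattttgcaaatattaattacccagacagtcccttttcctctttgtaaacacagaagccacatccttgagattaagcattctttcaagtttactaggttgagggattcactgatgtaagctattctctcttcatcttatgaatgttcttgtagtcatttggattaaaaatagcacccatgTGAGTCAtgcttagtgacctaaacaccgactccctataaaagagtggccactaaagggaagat
Mmp14: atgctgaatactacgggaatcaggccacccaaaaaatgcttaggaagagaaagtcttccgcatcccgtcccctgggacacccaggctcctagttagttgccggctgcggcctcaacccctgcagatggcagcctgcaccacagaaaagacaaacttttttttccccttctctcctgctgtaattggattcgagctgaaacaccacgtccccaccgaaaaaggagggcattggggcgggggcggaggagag

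A search of both strands found TGACTCA with its first base 35 bases before the start in Mmp13, and TGAGTCA at 46 bases in Mmp3 and at 63 bases in Mmp10. Mmp14 had no TGANTCA in its window but 2 matches to GGGCGG, the core of a GC box, at 19 and 13 bases before the start. TATAAA, the core of a TATA box, stood in the windows of Mmp13, Mmp3 and Mmp10 at 16, 7 and 29 bases, and not in that of Mmp14. No match overlapped another in these windows. Of 32817 mouse promoter windows of the same length, 6.75% held TGANTCA, 12.4% TATAAA and 32.7% GGGCGG. GC content was 40.4% in Mmp13, 37.6% in Mmp3, 37.2% in Mmp10 and 55.2% in Mmp14. Matches describe letters in a window and not binding. In the GENCODE annotation of GRCm38, all on the plus strand, Mmp13 (chromosome 9, 7272514 to 7283331), Mmp3 (chromosome 9, 7445822 to 7455975) and Mmp10 (chromosome 9, 7502352 to 7510240) lie in 1 cluster with Mmp12, Mmp1b, Mmp1a, Mmp8, Mmp27, Mmp20 and Mmp7. Mmp9 lies on chromosome 2 (164940780 to 164955850) and Mmp14 on chromosome 14 (54431612 to 54445364). Exons of the 5 genes overlap no exon of another gene, but 8.39% of the 50-base stretches of Mmp3 transcripts and 8.37% of those of Mmp10 also occur in transcripts of other genes, each of the other's among them, so reads there could be split or dropped.

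Library totals were 13399296 to 23990881 reads in MDA-MB-231 and 14418492 to 30866819 reads in the libraries labelled 4T1, except for TAK901 2 µM with 6004077 and 3746588 reads. The 4T1 tables fall into 2 naming sets that stand apart. Reads of 4 Y-linked genes were 0 in the 6 libraries of the ENMD-2076 set and 1004 to 7021 in those of the TAK901 set. Hnf4a, a liver and gut transcription factor, was at 0 reads in the ENMD-2076 set and at 206 to 249 CPM in the TAK901 set. Of 9 endoderm factors, Hnf4a among them, 7 exceeded 1 CPM in each group of the TAK901 set. In the groups of the ENMD-2076 set 2 or 3 did. All 10 epithelial markers were detected in every group, while of 12 macrophage and neutrophil markers at most 3, and of 6 endothelial markers at most 2, exceeded 1 CPM in any group. Each compound was therefore contrasted only with groups of its own set. The filter on low counts, the scaling and the spread nevertheless came from 1 fit of all 12 libraries labelled 4T1. With the TAK901 set fitted alone, edgeR called 3042 of 14505 genes at 1 µM, in place of 1406 of 15375. Whether both sets are the labelled line was not tested. In bulk RNA, fewer cells of a type and less RNA per cell cannot be told apart. The 2 MDA-MB-231 libraries of TAK901 2 µM differed from each other more than those of any other group.

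In MDA-MB-231, TAK901 lowered MMP9 and, at 2 µM, MMP3, while MMP1 was higher than in DMSO after both compounds. Levels are counts-per-million (CPM) after TMM scaling, and calls are from edgeR's quasi-likelihood test at an adjusted p under 0.05 over all 14826 genes tested. MMP14 passed the test at no dose. MMP13 was near the detection limit throughout.

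Counted over the 5 human genes, edgeR called 0 with ENMD-2076 2.5 µM, where 0.607% of all genes tested were called. DESeq2 called 1 there, and 207 of the 13580 genes to which it gave an adjusted p. Of the 5, 3 had an unadjusted p under 0.05, a threshold not counted over all genes, so 0.607% is no background for it. With 5 µM edgeR called 1, MMP1, which was higher. There 4.89% of all genes were called and 2.7% were called higher. With TAK901 1 µM it called 2, MMP1 higher and MMP9 lower, where 13.9% of all genes were called (6.46% higher, 7.47% lower). With 2 µM it called 3, MMP1 higher and MMP3 and MMP9 lower, where 31.2% were called (15.2% higher, 16% lower). These background shares moved with single libraries. When 1 library was left out, the 90 genes called with ENMD-2076 2.5 µM became 11 to 966, the 725 with 5 µM 67 to 2420, the 2065 with TAK901 1 µM 739 to 3995, the 4623 with 2 µM 2843 to 5594, and the 555 between the TAK901 doses 22 to 3581. The lowest of these counts came without a library of the groups compared and the highest without a TAK901 2 µM library. Between the doses edgeR called no MMP gene. For ENMD-2076, 5 µM against 2.5 µM, edgeR called 0.0135% of all genes, and of the 5 DESeq2 called 0 and 0 had an unadjusted p under 0.05. For TAK901, 2 µM against 1 µM, edgeR called 3.74% of all genes. DESeq2 called 1 of the 5 there, and 979 of the 11673 genes to which it gave an adjusted p. An unadjusted p under 0.05, again not counted over all genes, was reached by 2 of the 5.

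MMP1, the interstitial collagenase, had 7897 and 8434 CPM with ENMD-2076 2.5 µM, 8060 and 8351 CPM with 5 µM, 7719 and 7497 CPM with TAK901 1 µM and 8830 and 7836 CPM with 2 µM, against 5657 and 6031 CPM in DMSO. All 8 treated libraries lay above both DMSO libraries. The log2 fold change was 0.48 (SE 0.11, adjusted p = 0.0704, edgeR) with ENMD-2076 2.5 µM, 0.49 (SE 0.11, adjusted p = 0.0207) with 5 µM, 0.38 (SE 0.11, adjusted p = 0.0321) with TAK901 1 µM and 0.51 (SE 0.11, adjusted p = 0.00283) with 2 µM. MMP1 was thus called higher in all groups but ENMD-2076 2.5 µM, whose value was close to that of 5 µM. That group's value passed the test without the TAK901 2 µM libraries (edgeR adjusted p = 1.8e-06) or by DESeq2 (adjusted p = 0.00297). The calls were fragile: the one at ENMD-2076 5 µM was lost without either of its own libraries or either DMSO library (edgeR adjusted p 0.0795 to 0.205), the one at TAK901 1 µM without any 1 of the 8 libraries other than TAK901 2 µM (0.0657 to 0.174), and the one at TAK901 2 µM when only its own and the DMSO libraries were fitted (0.177).

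MMP3 (stromelysin-1) had 13.3 and 10.4 CPM with TAK901 1 µM and 7.55 and 8.13 CPM with 2 µM, against 13.4 and 17.6 CPM in DMSO. Both TAK901 pairs lay below the DMSO pair, the 1 µM pair only narrowly. MMP3 fell by 0.99 (SE 0.20, edgeR adjusted p = 0.00229) on the log2 scale at 2 µM, 1.98-fold lower, and its value at 1 µM was -0.39 (SE 0.20, adjusted p = 0.206). With ENMD-2076 it had 21.8 and 22 CPM at 2.5 µM and 18.1 and 20 CPM at 5 µM, which did not pass the test (log2 fold changes 0.49 and 0.30, edgeR adjusted p = 0.319 and 0.416).

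MMP9, the gelatinase, had 6.80 and 4.01 CPM with TAK901 1 µM and 1.96 and 2.63 CPM with 2 µM, against 13.4 and 10.4 CPM in DMSO. The 3 groups did not overlap. MMP9 fell by 1.14 (SE 0.28, edgeR adjusted p = 0.0172) on the log2 scale at 1 µM, 2.20-fold lower. At 2 µM its log2 fold change was -2.36 (SE 0.31, edgeR adjusted p = 7.9e-05), 5.14-fold lower. Between the doses, 2 µM over 1 µM, the difference was -1.22 (SE 0.32, edgeR adjusted p = 0.0511). Its call at 1 µM was lost without DMSO replicate 1 (adjusted p = 0.129) or without TAK901 1 µM replicate 2 (adjusted p = 0.157). ENMD-2076 gave 12.9 and 11.1 CPM at 2.5 µM and 12.4 and 17.1 CPM at 5 µM, overlapping the DMSO pair, with log2 fold changes of 0.02 (95% interval -0.50 to 0.54) and 0.32 (-0.20 to 0.83).

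MMP13 (collagenase-3) had only 5 and 6 reads in the DMSO libraries and 6 to 43 in the treated ones. Its level was 1.78 and 0.736 CPM with ENMD-2076 2.5 µM, 1.49 and 1.46 CPM with 5 µM, 0.421 and 1.31 CPM with TAK901 1 µM and 1.21 and 1.28 CPM with 2 µM, against 0.377 and 0.379 CPM in DMSO. Every treated library was above both DMSO libraries, yet no comparison passed the test (log2 fold changes 1.75, 1.94, 1.18 and 1.70, SE 0.75 to 0.79, edgeR adjusted p = 0.383, 0.163, 0.350 and 0.108). MMP14 (MT1-MMP) had 574 and 580 CPM with ENMD-2076 2.5 µM, 613 and 596 CPM with 5 µM, 487 and 500 CPM with TAK901 1 µM and 522 and 520 CPM with 2 µM, against 609 and 572 CPM in DMSO. The ENMD-2076 pairs lay around the DMSO pair, with 95% intervals of -0.23 to 0.17 and -0.17 to 0.23 on the log2 scale. TAK901 libraries were all below DMSO, with log2 fold changes of -0.26 (SE 0.10, edgeR adjusted p = 0.109) at 1 µM and -0.18 (SE 0.10, adjusted p = 0.200) at 2 µM. The 1 µM value passed the test once the TAK901 2 µM libraries were left out of the fit (adjusted p = 0.00512).

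**Figure D1:**
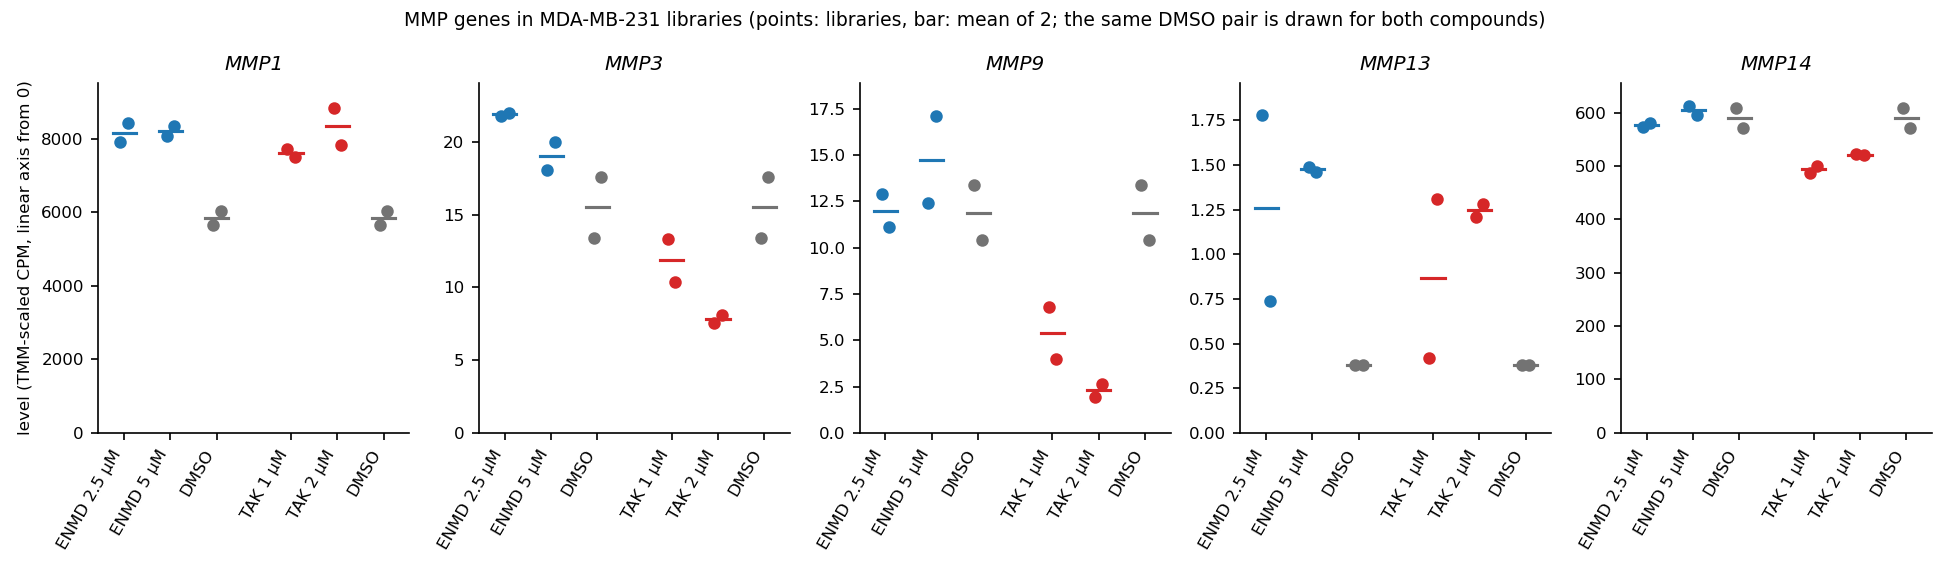
Levels of the 5 human MMP genes in each MDA-MB-231 library as TMM-scaled CPM on linear axes from 0, with points for libraries and bars for the mean of 2. MMP9 is at 1.96 and 2.63 CPM with TAK901 2 µM, below all other libraries, and all treated libraries of MMP1 lie above 5657 and 6031 CPM of DMSO, which is drawn for both compounds.

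In the libraries labelled 4T1, ENMD-2076 1.25 µM raised Mmp13, Mmp14 and Mmp10 and lowered Mmp3. At 2.5 µM the same genes stood differently: Mmp13 and Mmp14 were below DMSO 1 and 2, Mmp9 above it, and the direction of Mmp3 depended on the scaling. Calls were 4 of 5 at 1.25 µM (3 higher, 1 lower), where 45.9% of the 15375 genes tested were called (22.6% higher, 23.2% lower). They were 4 of 5 at 2.5 µM (2 higher, 2 lower), where 70.3% were called (33.2% higher, 37.1% lower). The count at 2.5 µM was near that background.

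Mmp13, the collagenase-3 gene, had 17.9 and 23.1 CPM with 1.25 µM and 2.40 and 2.92 CPM with 2.5 µM, against 6.43 and 3.89 CPM in DMSO 1 and 2. The 3 groups did not overlap. It rose by 1.99 (SE 0.19, edgeR adjusted p = 2.9e-10) on the log2 scale at 1.25 µM, 3.98-fold, and fell by 0.98 (SE 0.26, adjusted p = 0.00131) at 2.5 µM, 1.98-fold lower. The fall at 2.5 µM rested on DMSO replicate 1: without it the value was -0.58 (edgeR adjusted p = 0.0841). Between the doses, 2.5 µM over 1.25 µM, Mmp13 was 7.87-fold lower (log2 -2.98, SE 0.22, edgeR adjusted p = 2.9e-13).

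Mmp14, the membrane-anchored activator of proMMP2, had 366 and 352 CPM with 1.25 µM and 77.7 and 78.9 CPM with 2.5 µM, against 104 and 104 CPM in DMSO 1 and 2. Levels were far apart between groups and close within them. Mmp14 rose 3.44-fold at 1.25 µM (log2 1.78, SE 0.06, edgeR adjusted p = 3.0e-21) and was 1.33-fold lower at 2.5 µM (log2 -0.41, SE 0.07, adjusted p = 1.5e-06). The dose contrast was -2.20 (SE 0.06, edgeR adjusted p = 1.6e-23).

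Mmp10, stromelysin-2, had 23.7 and 25 CPM with 1.25 µM and 9.60 and 9.20 CPM with 2.5 µM, against 12.9 and 11.6 CPM in DMSO 1 and 2. It rose 1.99-fold at 1.25 µM (log2 0.99, SE 0.16, edgeR adjusted p = 5.4e-06) and at 2.5 µM gave -0.38 (SE 0.18, adjusted p = 0.0570), just short of the threshold. Under total-count scaling the 2.5 µM value was -0.74 (edgeR adjusted p = 4.5e-04). Its neighbour Mmp3, stromelysin-1, differed in sign, with 33.0 and 32.7 CPM with 1.25 µM and 56.5 and 63.0 CPM with 2.5 µM, against 48.7 and 46.7 CPM in DMSO 1 and 2. Mmp3 fell by 0.54 (SE 0.10, edgeR adjusted p = 4.3e-05) on the log2 scale at 1.25 µM. At 2.5 µM it was 0.32 higher (SE 0.10, adjusted p = 0.00504) with TMM scaling, and -0.04 (adjusted p = 0.777) when libraries were scaled by total count, a scaling under which the median of all genes moved to -0.37 where it was -0.02 with TMM. A change of scaling moves all genes by nearly the same amount, so the place of Mmp3 relative to that median is fixed beforehand. It does not settle the direction of Mmp3.

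Mmp9 had 4.13 and 5.31 CPM with 1.25 µM and 8.15 and 14 CPM with 2.5 µM, against 4.97 and 6.25 CPM in DMSO 1 and 2. The low dose overlapped DMSO (log2 -0.20, SE 0.20, edgeR adjusted p = 0.456) and the high dose lay above it, with a wide gap between its 2 libraries. It rose 1.92-fold at 2.5 µM (log2 0.94, SE 0.19, edgeR adjusted p = 6.5e-05). All 5 mouse MMP genes were called between the doses, 2.5 µM over 1.25 µM, with Mmp3 (0.86) and Mmp9 (1.14) higher and Mmp10 (-1.37), Mmp13 and Mmp14 lower on the log2 scale, where 73.3% of all genes were called (35.4% higher, 37.8% lower).

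Other values moved with these groups. Mitochondrial genes took 6.21% and 7.09% of reads with ENMD-2076 1.25 µM and 8.83% and 8.72% with 2.5 µM, against 3.92% and 4.13% in DMSO 1 and 2. The 2.5 µM libraries had TMM factors of 0.766 and 0.784 and 2185 and 2004 CPM of the noncoding RNA Gm26917 without TMM scaling, against 36.5 and 29.9 CPM in the DMSO pair and 50.6 and 41.7 CPM with 1.25 µM. With 1.25 µM the summed level of 10 fibroblast markers was 84.2 and 94.9 CPM, against 38.3 and 44.9 CPM in the DMSO pair. Most of that sum was Postn, a matrix protein, at 58.0 and 63.9 CPM with 1.25 µM and at 0.324 and 0 CPM in DMSO. Col1a2, a collagen chain, had 1.58 and 1.84 CPM with 1.25 µM, against 0 and 0.354 CPM in DMSO, and Dcn had 1 and 5 reads, against none. Pdgfra had 23.7 and 28.4 CPM with 1.25 µM, against 36.8 and 43.4 CPM in DMSO, Col1a1 and Fap stayed under 1 CPM in all 4 libraries, and Col3a1, Pdgfrb, Lum and Thy1 had no reads with 1.25 µM. The sum of 12 macrophage and neutrophil markers was 23.7 and 27.8 CPM with 1.25 µM, against 11.4 and 13.3 CPM in the DMSO pair. Csf1r, a receptor of macrophages, made most of that difference, with 8.94 and 12.9 CPM with 1.25 µM, against 0.108 and 0.825 CPM in DMSO, Cd68 had 14.7 and 14.7 CPM with 1.25 µM, against 11 and 12.3 CPM, and 7 of the 12, Ptprc, Adgre1 and Ly6g among them, were at 0 reads with 1.25 µM. With 2.5 µM the macrophage and neutrophil sum was 7.96 and 7.87 CPM. There the sum of 6 endothelial markers was 3.47 and 5.04 CPM, against 0.757 and 0.589 CPM in the DMSO pair, with Tek at 36 and 29 reads with 2.5 µM and 10 and 5 in DMSO. Pecam1 had 18 and 24 reads, against 2 and 4, and Kdr 1 and 4 reads, against none. Cdh5 and Emcn had no reads in either group, and Vwf had none with 2.5 µM, against 2 and 1 in DMSO. The sum of the 10 epithelial markers was 3253 and 3146 CPM with 2.5 µM, against 4796 and 4894 CPM in the DMSO pair. Krt18 had 524 and 515 CPM there, against 1404 and 1423 CPM, and Krt7, Krt19, Cldn3, Cldn4, Cldn7 and Esrp1 were lower too. Epcam was nearly level (346 and 339 CPM, against 350 and 355 CPM) and Krt8 overlapped DMSO (1032 and 990 CPM, against 1016 and 1025 CPM). Cdh1 was higher (500 and 483 CPM, against 411 and 435 CPM). The part of mitochondrial reads, Gm26917 and these markers in the MMP values was not tested.

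TAK901 lowered Mmp3 and Mmp10 at both doses in its own set and Mmp9 at 2 µM, while Mmp14 was slightly higher than in DMSO 3 and 4. Mmp3, Mmp10, Mmp9 and, narrowly, Mmp13 were lower in both 2 µM libraries than in both 1 µM libraries. How many of all genes separate in this way was not counted. Calls were 2 of 5 at 1 µM, both lower, where 9.14% of all genes were called and 5.17% called lower. At 2 µM all 5 were called (4 lower, 1 higher), where 14.9% were called (9.28% lower, 5.63% higher). Between 2 µM and 1 µM edgeR called 0 of 5, where 0.0715% of all genes were called. DESeq2 called 0 of 5, and 46 of the 2406 genes to which it gave an adjusted p. An unadjusted p under 0.05, not counted over all genes, was reached by 2. They were Mmp3 (log2 -0.64, SE 0.15, edgeR adjusted p = 0.094) and Mmp9 (-0.60, SE 0.15, adjusted p = 0.105), and both passed the test when only the TAK901 set was fitted (adjusted p = 0.0445 and 0.00105). Mmp10, with 2 and 1 reads at 2 µM, had a value of -1.45 (SE 0.73, edgeR adjusted p = 0.66). When 1 library was left out, the 1406 genes called at 1 µM became 376 to 1739, the 2292 at 2 µM 1245 to 2582 and the 11 between the doses 1 to 34, lowest without a library of the groups compared. Mitochondrial genes took 2.64% and 2.98% of reads with 1 µM and 2.85% and 2.86% with 2 µM, against 1.94% and 2.04% in DMSO 3 and 4. The epithelial marker sum was 4993 and 5019 CPM with 1 µM and 5036 and 4627 CPM with 2 µM, against 6029 and 5436 CPM, and the macrophage and neutrophil sum was 7.19 and 9 CPM and 10.7 and 9.79 CPM, against 6.42 and 7.64 CPM. Of the epithelial markers, Krt7, Krt8 and Krt18 were lower in every TAK901 library than in both DMSO libraries. Epcam, Cdh1, Cldn4 and Esrp1 were higher in every one, and Krt19, Cldn3 and Cldn7 overlapped DMSO at 1 dose or both. The part of mitochondrial reads and these markers in the MMP values was not tested.

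Mmp3 had 18.5 and 21.5 CPM with TAK901 1 µM and 14.5 and 10.7 CPM with 2 µM, against 38.0 and 37.6 CPM in DMSO 3 and 4. The 3 groups did not overlap. It was 1.88-fold lower at 1 µM (log2 -0.91, SE 0.10, edgeR adjusted p = 6.1e-07) and 2.92-fold lower at 2 µM (log2 -1.55, SE 0.14, adjusted p = 5.1e-09). Mmp10 had 12 and 24 reads with 1 µM and 2 and 1 reads with 2 µM, against 49 and 64 reads in DMSO 3 and 4, which is 0.691 and 0.819 CPM with 1 µM, 0.301 and 0.239 CPM with 2 µM, and 2.08 and 2.41 CPM in DMSO 3 and 4. Both doses were called lower (edgeR adjusted p = 5.1e-04 and 5.0e-04). Pooled and divided by library totals, Mmp10 at 1 µM was 34.7% of its DMSO level (95% interval 23.2 to 50.9, exact, counting error only) and at 2 µM 12.8% (2.6 to 38.3). The 2 µM value comes from 3 reads in the 2 shallowest libraries.

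Mmp9 had 52.1 and 50.5 CPM with TAK901 1 µM and 33.6 and 33.9 CPM with 2 µM, against 68.1 and 62.6 CPM in DMSO 3 and 4. It was 1.94-fold lower at 2 µM (log2 -0.95, SE 0.14, edgeR adjusted p = 1.8e-05), and at 1 µM its value of -0.35 (SE 0.12, adjusted p = 0.0671) passed the test when only the libraries of the TAK901 set were fitted (adjusted p = 1.6e-04). Mmp13 had 11 and 12.4 CPM with 1 µM and 10.1 and 11 CPM with 2 µM, against 15.6 and 16.6 CPM in DMSO 3 and 4. All treated libraries were lower, with log2 values of -0.45 (SE 0.17, edgeR adjusted p = 0.102) at 1 µM and -0.62 (SE 0.21, adjusted p = 0.0470) at 2 µM. The call at 2 µM was lost under RLE scaling (0.0634), total-count scaling (0.0798) and DESeq2 (0.11), and without any 1 of the 6 libraries of this set (edgeR adjusted p 0.0616 to 0.337).

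Mmp14 had 94.8 and 99.3 CPM with TAK901 1 µM and 104 and 99.0 CPM with 2 µM, against 87.9 and 87.6 CPM in DMSO 3 and 4. The rise at 2 µM was small (1.16-fold, log2 0.21, SE 0.07, edgeR adjusted p = 0.0395). That call was lost without any 1 of the TAK901 set's 6 libraries or of DMSO 1 and 2 (edgeR adjusted p 0.0530 to 0.297) and without the filter on low counts (0.166).

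**Figure D2:**
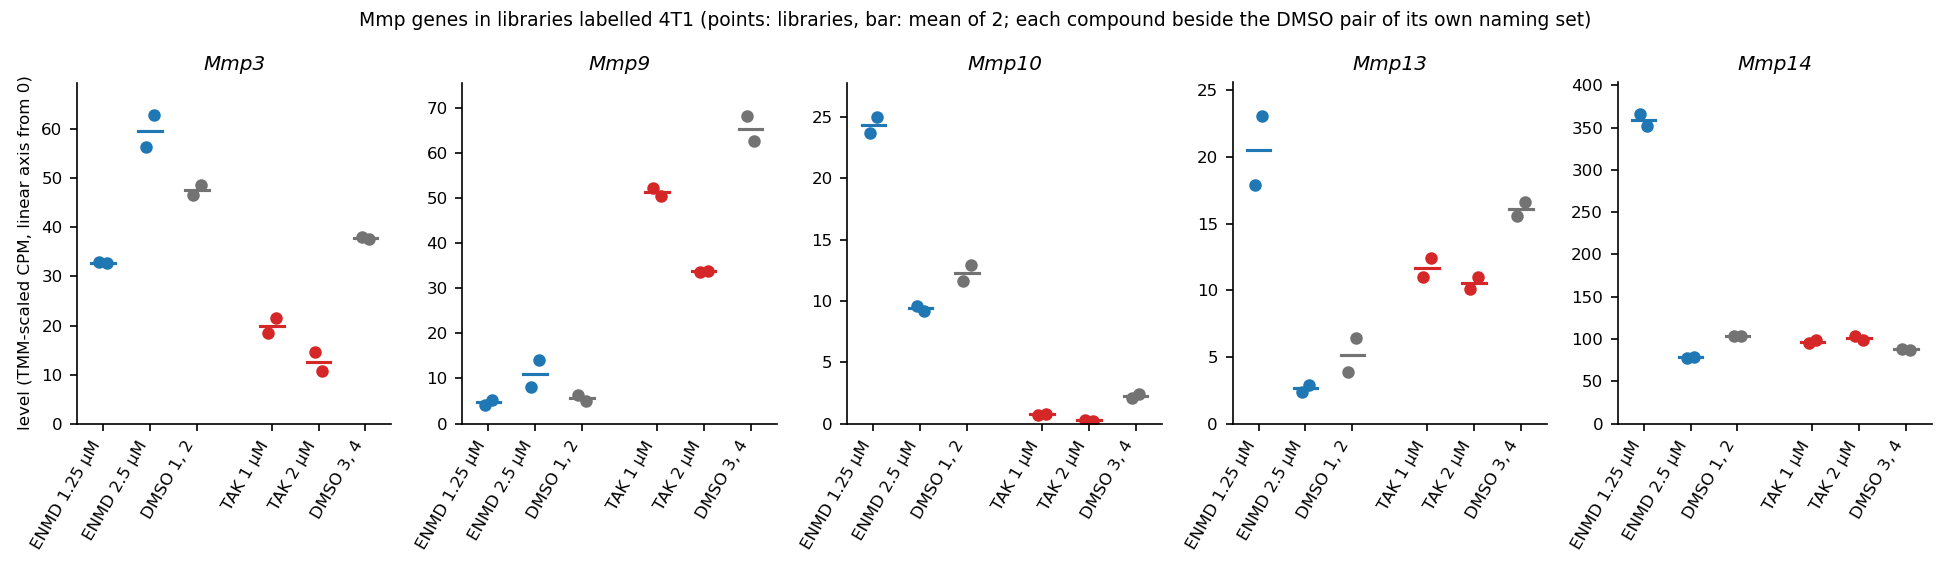
Levels of the 5 mouse Mmp genes in each library labelled 4T1 as TMM-scaled CPM on linear axes from 0, with points for libraries and bars for the mean of 2, each compound beside DMSO of its own set. Mmp14 stands at 366 and 352 CPM with ENMD-2076 1.25 µM against 104 and 104 CPM in DMSO 1 and 2, and Mmp3 is lower at each TAK901 dose than in DMSO 3 and 4. The place of Mmp3 above DMSO at ENMD-2076 2.5 µM holds with TMM and not with total-count scaling.

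Levels can be compared between genes per exon length, as RPKM, the TMM-scaled CPM per kilobase of exon, over the merged exons of each mouse gene. With ENMD-2076 1.25 µM the order was Mmp14 (60.2 ± 1.7 RPKM), Mmp3 (18.2 ± 0.109), Mmp10 (14.1 ± 0.552), Mmp13 (7.67 ± 1.35) and Mmp9 (1.33 ± 0.238, SD, n = 2 each). With 2.5 µM it was Mmp3 (33.2 ± 2.54 RPKM), Mmp14 (13.1 ± 0.146), Mmp10 (5.46 ± 0.164), Mmp9 (3.13 ± 1.17) and Mmp13 (0.995 ± 0.137). In DMSO 1 and 2 it was Mmp3 (26.5 ± 0.776 RPKM), Mmp14 (17.5 ± 0.0109), Mmp10 (7.11 ± 0.516), Mmp13 (1.93 ± 0.673) and Mmp9 (1.59 ± 0.254), the last pair not separated beyond their spread. Mmp14 thus headed the order only in the 1.25 µM libraries of that set.

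In the TAK901 set, the RPKM order at 1 µM was Mmp14 (16.3 ± 0.535), Mmp9 (14.5 ± 0.313), Mmp3 (11.1 ± 1.18), Mmp13 (4.39 ± 0.361) and Mmp10 (0.438 ± 0.0526). At 2 µM it was Mmp14 (17 ± 0.535 RPKM), Mmp9 (9.54 ± 0.0551), Mmp3 (7.0 ± 1.46), Mmp13 (3.94 ± 0.233) and Mmp10 (0.157 ± 0.0258). In DMSO 3 and 4 Mmp3 (21.0 ± 0.182 RPKM) came before Mmp9 (18.5 ± 1.11), Mmp14 (14.7 ± 0.0389), Mmp13 (6.03 ± 0.251) and Mmp10 (1.30 ± 0.133). The 2 DMSO pairs themselves differed, with Mmp9 at 18.5 RPKM in DMSO 3 and 4 and at 1.59 RPKM in DMSO 1 and 2, and Mmp10 at 1.30 and 7.11 RPKM, so set and compound cannot be told apart across the sets.

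**Figure D3:**
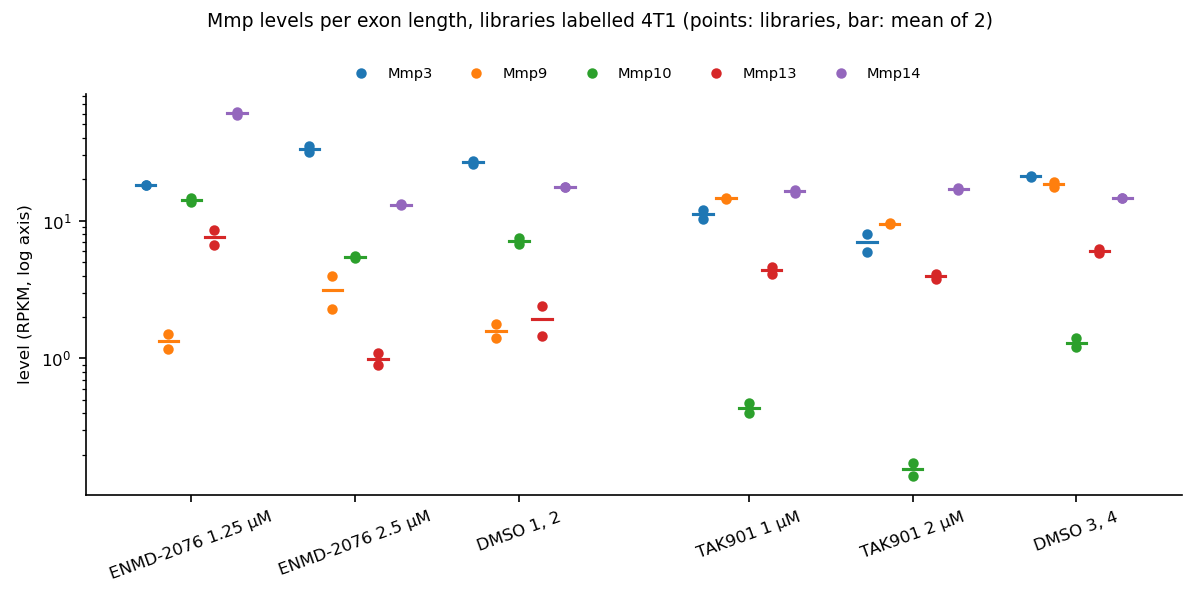
Levels of the 5 mouse Mmp genes per exon length (RPKM, log axis) in the 6 groups labelled 4T1, with points for libraries and bars for the mean of 2. Mmp14 is highest with ENMD-2076 1.25 µM at 60.2 RPKM, and Mmp10 is lowest with TAK901 2 µM at 0.157 RPKM.

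For each of the 8 gene lists below, the counts of calls are to be read beside the shares of all genes called. These were 45.9% with ENMD-2076 1.25 µM (22.6% higher, 23.2% lower) and 70.3% with 2.5 µM (33.2% higher, 37.1% lower). With TAK901 they were 9.14% at 1 µM and 14.9% at 2 µM. A count near its share is no result about the list. Of 18 further mouse MMP genes 8 passed the filter on low counts. With ENMD-2076 1.25 µM 3 rose and 1 fell (median log2 fold change 0.59, against 0.00 over all genes tested). Mmp15, a membrane-type MMP like Mmp14, averaged 37.8 ± 5.46 CPM with 1.25 µM and 5.42 ± 0.331 CPM in DMSO 1 and 2 (SD, n = 2 each, log2 2.79). Mmp11, stromelysin-3, averaged 64.3 ± 0.449 CPM with 1.25 µM and 33.8 ± 1.65 CPM in DMSO 1 and 2 (0.93). Mmp23 fell by 1.87 on the log2 scale, with 0.275 and 0.322 CPM, against 0.973 and 1.3 CPM in DMSO 1 and 2. It had only 4 to 22 reads in the libraries of this set. DESeq2 called 3 genes of the list with 1.25 µM. Mmp12, macrophage elastase, had 66 and 184 reads with 1.25 µM and 2 and 0 reads in the DMSO pair, a ratio of 98.7 after division by library totals (95% interval 27 to 819, counting error only). With 2.5 µM Mmp12 rose (12 and 7 reads, ratio 9.67, interval 2.33 to 85.6) and Mmp11 fell by 1.09, and the list's median was -0.74, against -0.02 over all genes. Mmp2, the gelatinase activated by MMP14, had at most 22 reads in any library labelled 4T1.

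With TAK901 1 µM edgeR called 0 of these 8 MMP genes, with 2 at an unadjusted p under 0.05, a threshold not counted over all genes, and 0 by DESeq2 (median 0.15, against 0.00 over all genes). At 2 µM it called 1, Mmp15, which rose by 0.77 on the log2 scale (median 0.41, against -0.02). Of 5 MMP inhibitors 4 were tested. Timp2, which inhibits MMPs and also links MMP14 to proMMP2, rose in all 4 comparisons: it averaged 1079 ± 37.1 CPM with ENMD-2076 1.25 µM and 1005 ± 39.9 CPM with 2.5 µM, against 497 ± 8.55 CPM in DMSO 1 and 2 (log2 1.12 and 1.02). With TAK901 it averaged 833 ± 23 CPM at 1 µM and 857 ± 4.26 CPM at 2 µM, against 668 ± 0.227 CPM in DMSO 3 and 4 (log2 0.32 and 0.36). ENMD-2076 2.5 µM also raised Timp1 (log2 0.66) and lowered Reck, a membrane-bound inhibitor (-0.95). List medians were -0.03 with ENMD-2076 1.25 µM, -0.15 with 2.5 µM, -0.01 with TAK901 1 µM and 0.10 with 2 µM, against 0.00, -0.02, 0.00 and -0.02 over all genes.

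The plasminogen system makes plasmin, an activator of MMP proenzymes, and 6 of 7 of its genes were tested. These genes do not all act in the same direction, so the list's counts and medians are no measure of plasmin formation. With TAK901 none rose and 3 fell at 1 µM (median -0.20, against 0.00 over all genes), with 4 falling at 2 µM (median -0.38, against -0.02). Plau, urokinase, had log2 fold changes of -0.40 and -0.59 at 1 and 2 µM, its receptor Plaur had -0.31 and -0.44, and Anxa2, a plasminogen docking protein, had -0.28 and -0.35. Serpine2 at 2 µM was -0.40, a call lost under RLE and total-count scaling. With ENMD-2076 the list split. At 1.25 µM 1 rose and 3 fell (median -0.74, against 0.00), namely Serpine2 (-1.71), Plat (-1.54), Plaur (-1.38) and S100a10 (0.40). At 2.5 µM 2 rose and 2 fell (median 0.05; 3 and 2 with 0.20 under RLE scaling, 2 and 4 with -0.31 under total-count scaling), namely Plat (-1.57), S100a10 (1.28), Plau (-1.23) and Anxa2 (0.95).

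Of 10 genes for MMP activation and docking 9 were tested. With ENMD-2076 1.25 µM 5 rose and 4 fell (median 0.32, against 0.00), led by Itgb3 (log2 2.00), Cd44 (-1.49), a docking site for MMP9 and MMP14, Pcsk6 (-0.89) and Pcsk7 (0.43). With 2.5 µM 2 rose and 4 fell (median -0.24, against -0.02), led by Lcn2 (-4.27), which binds MMP9, Itgb3 (-1.67), Pcsk6 (1.58) and Bsg (1.39), known as an inducer of MMPs. That split became 3 and 3 under RLE scaling (median -0.08) and 2 and 7 under total-count scaling (median -0.60). TAK901 raised Lcn2 at both doses (92.0 ± 5.47 CPM at 1 µM and 128 ± 21.9 CPM at 2 µM, against 52.4 ± 1.44 CPM in DMSO 3 and 4) and lowered Cav1 (-0.26 and -0.46), with medians of -0.00 and -0.03.

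AP-1 subunits, which bind the TGANTCA core shown above, were all tested. ENMD-2076 1.25 µM raised 2 of 10 and lowered 6, where 45.9% of all genes were called (median -0.95, against 0.00 over all genes). Fosl1 fell by 3.20 and Fosl2 rose by 2.10 on the log2 scale. Fosl2 stood at 454 ± 20.1 CPM with 1.25 µM and 106 ± 6.55 CPM in DMSO 1 and 2. Batf3 (-2.03) and Fosb (-1.89) were lower. Batf3 was at a low level, 0.0688 and 0.483 CPM with 1.25 µM, against 1.08 and 1.65 CPM in DMSO 1 and 2. At 2.5 µM 1 rose and 7 fell, where 70.3% of all genes were called (median -0.96, against -0.02). Junb (-2.14), Fosb (-1.97), Jund (-1.74) and Atf3 (-1.06) led. TAK901 1 µM raised Jund (0.24), while DESeq2 called 0 of the list there. TAK901 2 µM raised Atf3 (0.49) and Jund (0.35) and lowered Fosl1 (-0.45). Medians were 0.11 at 1 µM and 0.18 at 2 µM.

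ETS and RUNX factors, other known regulators of MMP promoters, had 11 of 12 tested. With ENMD-2076 1.25 µM 6 rose and 4 fell (median 0.19, against 0.00). Etv5 averaged 2.23 ± 0.0386 CPM with 1.25 µM and 70.0 ± 8.69 CPM in DMSO 1 and 2 (log2 -4.96), Etv4 averaged 3.59 ± 0.659 CPM with 1.25 µM and 92.7 ± 5.28 CPM in DMSO 1 and 2 (-4.75), and Ehf (2.22) and Etv1 (-1.75) followed. With 2.5 µM 3 rose and 7 fell (median -0.83, against -0.02), led by Etv1 (-4.02), Etv5 (-3.37), Elk3 (-1.71) and Runx1 (-1.42). TAK901 lowered Etv4 (-0.40 and -0.63) and raised Ehf (0.28 and 0.37) at 1 and 2 µM, and lowered Ets1 (-0.25, lost under total-count scaling) at 2 µM, with medians of 0.10 and 0.07.

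ADAM and ADAMTS proteases, relatives of the MMPs, were all 12 tested. ENMD-2076 1.25 µM raised 5 and lowered 2 (median 0.19), with Adamts5 at 12 and 63 reads, against 1 and 1 in DMSO 1 and 2 (ratio 29.6, 95% interval 7.91 to 249, counting error only), Adam12 (log2 1.71), Adamts4 (1.30) and Adamts1 (1.25). At 2.5 µM 3 rose and 5 fell (median -0.25), led by Adamts4 (-4.07), Adamts9 (-1.72), Adam19 (-1.27) and Adamts1 (0.83). Under RLE scaling 4 rose and 3 fell (median -0.09), and under total-count scaling 2 rose and 7 fell (median -0.61). TAK901 raised Adam10 (0.25 and 0.29) and lowered Adam12 (-0.62 and -1.25) at 1 and 2 µM, and lowered Adam8 (-0.77) at 2 µM, with medians of 0.05 and 0.15.

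Cytokines and growth factors known to induce MMP genes had 10 of 12 tested. With ENMD-2076 1.25 µM 2 rose and 6 fell (median -1.08, against 0.00). Areg, an EGF receptor ligand, averaged 0.282 ± 0.0105 CPM with 1.25 µM and 13.3 ± 2.18 CPM in DMSO 1 and 2 (log2 -5.51), Tgfb2 rose by 3.07 and Il1a fell by 1.86. Il1b had 0 and 2 reads with 1.25 µM, against 15 and 13 in the DMSO pair (ratio 0.0564, 95% interval 0.00651 to 0.224, counting error only). With 2.5 µM 2 rose and 7 fell (median -1.33, against -0.02). Il1b had no reads there, at least 9.17-fold lower with a floor of 3 reads over the group, and Il6 had 32 and 16 reads, against none in DMSO 1 and 2, at least 16.3-fold higher by the same floor, while Areg (-2.88) and Il1a (-2.86) fell. TAK901 raised Tgfb3 (0.39 and 0.51) and lowered Areg (-0.53 and -0.75) and Hbegf (-0.27 and -0.36) at 1 and 2 µM, with medians of -0.03 and -0.18. Against DMSO no called gene of these 8 lists changed direction under RLE or total-count scaling. Besides Serpine2 and Ets1 with TAK901 2 µM, calls were lost with ENMD-2076 2.5 µM, for Cd44, Elk1, Ehf, Adam9, Adam10 and Tgfb1 under RLE scaling and for Ets2 and Adam12 under total-count scaling.

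**Figure D4:**
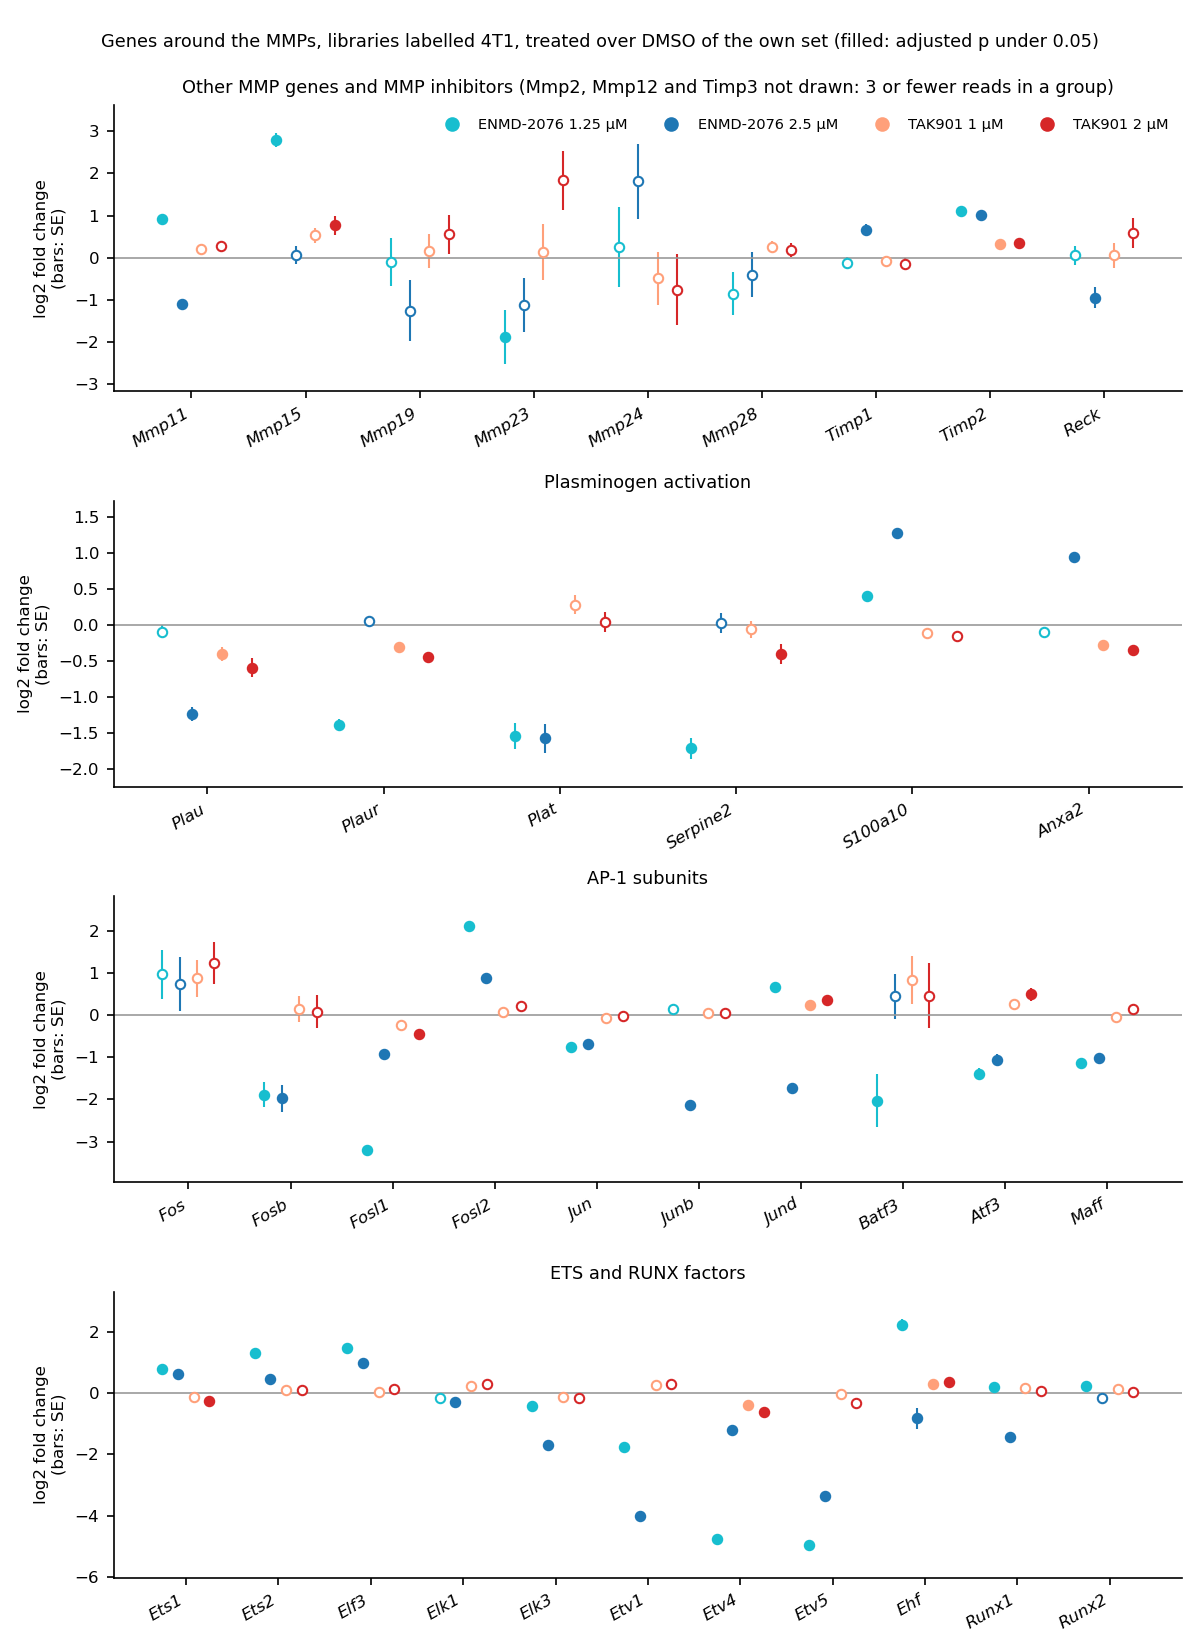
Log2 fold changes over DMSO of the own set, with SE bars, for the other MMP genes, MMP inhibitors, plasminogen activation, AP-1 subunits and ETS and RUNX factors in the libraries labelled 4T1, filled where the edgeR adjusted p is under 0.05. Timp2 is filled above 0 in all 4 comparisons, at 1.12, 1.02, 0.32 and 0.36, and Etv4 and Etv5 lie at -4.75 and -4.96 with ENMD-2076 1.25 µM.

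Over the 12 libraries labelled 4T1, each set centred on its own DMSO, the MMP genes fell into unlike patterns. Pearson's r of log2(CPM + 0.5) was 0.923 between Mmp13 and Mmp14, 0.867 between Mmp3 and Mmp9, 0.771 between Mmp10 and Mmp13, 0.641 between Mmp3 and Mmp10, and -0.277 between Mmp3 and Mmp14. Among all genes tested the nearest to Mmp14 were Sema3f (0.995), Nedd9 (0.995) and Gm26809 (0.993), and those nearest to Mmp13 were Gm8113 (0.989), Ifit2 (0.986) and F2r (0.985). For Mmp3 they were Wrb (0.957), Gjc1 (0.955) and Dkc1 (0.951), for Mmp9 Slc35c1 (0.970), Ttll11 (0.961) and Dusp12 (0.960), and for Mmp10 Snord83b (0.981), Dynap (0.975) and Psme3 (0.964). The libraries share groups, depth and treatment, so these values are a description over 12 points and carry no test.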

How the data were processed

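RNA of 22 libraries was sequenced after TRIzol extraction and NEBNext Ultra preparation, per the labels' protocols. The authors deposited raw read counts per gene, 1 table a library. Per the submitters' processing notes, the tools were DESeq2, HTSeq, TopHat, Bowtie and FastQC 0.11.3 and the builds mm10 and hg38. The annotation used and the counting strand were not given in the sources used here. For 4T1 the growth protocol states other ENMD-2076 doses than the treatment labels, and those tables' headers name no compound and carry the same tag, 10uM, in both dose groups. The labels were followed.

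Counts were fitted with edgeR 4.0.16 (R 4.3.3) using filterByExpr, TMM scaling and a quasi-likelihood model. The model held every group, 5 for MDA-MB-231 and 6 for the libraries labelled 4T1, both naming sets together. From here on, 4T1 stands for that label and not for a checked line. The p-values are two-sided, with the Benjamini-Hochberg adjustment made over every gene tested. The SE divides the log2 fold change by the square root of F, and the 95% intervals are normal approximations. A count of 0 allows up to 3 reads. GENCODE vM21 named 37607 of 38924 mouse IDs. Human IDs were not named here, so lists and line markers were not analysed in MDA-MB-231. DESeq2 1.42.0 and other alternatives were run, and the code was tested on simulated data. The members and lists were chosen with earlier results of these data known. Genes named from a list are at most the 4 furthest from 0 among those called in a comparison, with their counts as edgeR's calls. 1 gene of the plasminogen list is not reported here and was left out of that list's counts.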

Additional observations from a re-analysis of the deposited data

Results flagged for a closer look

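In 5 cases both MDA-MB-231 libraries and both labelled 4T1 lay on opposite sides of their DMSO means, under the same compound and dose. MMP3, MMP9 and, with ENMD-2076 2.5 µM, MMP14 gave no such case. With TAK901 1 and 2 µM, MMP3 and MMP9 lay below the DMSO mean in every library, human and mouse. The differences in the 5 cases, MDA-MB-231 minus libraries labelled 4T1 in mean log2 over DMSO, were not tested. The libraries of TAK901 labelled 4T1, with Y-linked and Hnf4a reads that the ENMD-2076 set lacks, enter 4 of the 5.

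For MMP13 and Mmp13 they were 1.44 with TAK901 1 µM (0.16 and 1.79 in MDA-MB-231, -0.55 and -0.38 in 4T1), 2.33 with TAK901 2 µM (1.68 and 1.76, and -0.67 and -0.55) and 2.56 with ENMD-2076 2.5 µM (2.24 and 0.96, and -1.10 and -0.82). The MDA-MB-231 values rest on 5 and 6 reads in DMSO. For MMP14 and Mmp14 they were -0.40 with TAK901 1 µM (-0.28 and -0.24, and 0.11 and 0.18) and -0.39 with TAK901 2 µM (-0.18 and -0.18, and 0.25 and 0.17).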

How the results depend on the processing

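Over 60 log2 fold changes of the MMP genes and 1063 alternative fits, 988 kept their side of the threshold, 34 lost the call and 40 gained one. In 1 a called value changed sign, Mmp3 with ENMD-2076 2.5 µM in 4T1 (-0.04 under total-count scaling). Sign changes between values that were not called count among the 988. For example, MMP9 with ENMD-2076 2.5 µM in MDA-MB-231, at 0.02, ran from -0.15 to 0.21. MMP calls with ENMD-2076 2.5 µM in MDA-MB-231 became 1, in place of 0, in 4 kinds of fit. These were no filter on low counts, DESeq2, only the 2 groups fitted, and both TAK901 2 µM libraries left out. In that order, these fits called 266, 207, 813 and 953 of all genes, in place of 90. For TAK901 2 µM against 1 µM in MDA-MB-231 MMP calls became 1 with total-count scaling, no filter, DESeq2 or the replicate block. All genes called there were 186 higher and 306 lower with total-count scaling, 1369 with no filter and 979 with DESeq2, in place of 555. For TAK901 1 µM in 4T1 MMP calls became 5 with only the 2 groups and 4 with the own set only. Of all genes, 3719 of 14493 and 3042 of 14505 were called there, in place of 1406 of 15375. For 2 µM against 1 µM in 4T1 MMP calls became 2 in 4 kinds of fit. These were no filter, only the 2 groups, the own set only, and the replicate block with the own set only. In that order they called 81, 99, 77 and 95 of all genes, in place of 11. The cause of these shifts was not tested.

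Leaving out 1 library at a time gave 0 to 1 MMP calls for ENMD-2076 2.5 µM and for 5 µM, 0 to 3 for TAK901 1 µM, 3 to 3 for 2 µM, and 0 to 0 and 0 to 2 between the doses in MDA-MB-231. In 4T1 it gave 4 to 4 for ENMD-2076 1.25 µM, 3 to 5 for 2.5 µM and 5 to 5 between them, and 2 to 3 for TAK901 1 µM, 3 to 5 for 2 µM and 0 to 1 between them. A group left with 1 library is assumed to vary like the others. Counts over all genes moved further: only the 2 groups fitted gave 813 calls in place of 90 for ENMD-2076 2.5 µM in MDA-MB-231, 2503 in place of 725 for 5 µM, 3153 in place of 2065 for TAK901 1 µM, 2340 in place of 4623 for 2 µM, and 3719 in place of 1406 for TAK901 1 µM in 4T1. Leaving out 1 library moved the MDA-MB-231 and TAK901 counts both ways, as given beside them, and gave 6000 to 7393 in place of 7056 for ENMD-2076 1.25 µM and 10208 to 11305 in place of 10816 for 2.5 µM in 4T1.

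Total-count scaling moved the share of calls that were higher to 34.2% (47.3% with TMM) for ENMD-2076 2.5 µM, to 53.8% (43.5%) for TAK901 1 µM and to 53.8% (37.7%) for 2 µM in 4T1. Equal replicate numbers did not pair libraries (correlations of deviations -0.0213 to 0.106); with the replicate block MMP9 between the TAK901 doses in MDA-MB-231 had an adjusted p of 0.0461 in edgeR. Low reads limit MMP13 in MDA-MB-231 and Mmp10 with TAK901.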
